A study of Mus musculus with 4 samples.

Results

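The SOX genes encode transcription factors that bind DNA through an HMG box, and 10 of them with known roles in the nervous system were described here in the developing mouse cortex. They are Sox1, Sox2 and Sox3 of subgroup SOXB1, Sox21 of SOXB2, Sox4 and Sox11 of SOXC, Sox5 of SOXD, and Sox8, Sox9 and Sox10 of SOXE. All 10 were found by gene symbol among the 27293 named genes of the deposited count table, and all 10 passed the filter on low counts together with the rest of the 16145 genes tested. The table held 9 further SOX genes, which serve for comparison.

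RNA was taken at embryonic day 13 (E13) from C57BL/6 mice and sequenced in 4 libraries. The 2 libraries named WT 1 and WT 2 carry the genotype WT, with no floxed allele or Cre named in the labels, and the 2 named cKO 1 and cKO 2 carry the genotype STINGf/f;Nestin-Cre. In the latter, Cre driven by Nestin regulatory sequence recombines the floxed STING alleles of neural progenitors and of the cells they give rise to, so vessels, blood and meninges of the sample are not the intended target. The study asked how the transcriptome of this tissue differs when STING is deleted. The labels call the tissue telencephalic and the study's methods call it cerebral cortex. They give no litter, sex or number of embryos per library, so p-values measure the spread between these libraries only. The title of WT 2 also carries the letters "nes", which the labels do not explain.

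SOX factors act at successive steps of neural development. SOXB1 factors keep progenitors of the neural tube in the cycling state and SOXB2 factors oppose them. SOXC factors switch on neuronal genes in newborn neurons, SOXD factors help to set the identity and timing of cortical neurons, and SOXE factors open the way to glia and to the neural crest. Partner factors of the POU, PAX and NFI families bind beside them.

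Total counts on genes ran from 17209654 to 18533391 per library, and levels are given as CPM, the count scaled to library size by TMM. A count of 0 allows a level of up to 3 counts, which is 0.162 to 0.174 CPM. Where 4 values of a gene follow each other, they are those of WT 1, WT 2, cKO 1 and cKO 2. This limit covers counting error only. The STING gene, listed as Tmem173, had 20 and 19 counts in the WT libraries and 18 and 22 in the cKO libraries, with a log2 fold change of 0.02 (SE 0.45, adjusted p = 0.9999, edgeR), so its counts did not separate the labels. The table counts whole genes, and these counts cannot show whether a floxed part is missing from the transcript. Tbr1 and Eomes, which mark neurons and intermediate progenitors of the cortex, had at least 5423 and 4058 counts in every library. WT 2 stood apart in having 0 counts on the 4 genes Uty, Kdm5d, Eif2s3y and Ddx3y of chromosome Y. On these WT 1 had 2735, cKO 1 had 3002 and cKO 2 had 1848. By these counts WT 2 showed no male tissue and the other libraries did, so sex composition differed within WT and between the labels. The part of sex in the differences below was not tested. WT 1 stood apart in genes of tissue beside the cortex. Summed over 13 tested genes of cartilage and cranial mesenchyme the level was 507.6 CPM in WT 1 and 221.6 to 268.3 CPM in the other libraries, and over 12 tested genes of choroid plexus and cortical hem it was 135.8 CPM in WT 1 and 37.69 to 50.37 CPM elsewhere. cKO 1 stood apart in genes of the ventral telencephalon, whose sum over 15 genes was 781.1 CPM there and 1160 to 1206 CPM in the other libraries.

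The HMG box is the part that the SOX genes share most closely, and it is shown here as a part where reads of one gene might be placed on another. In each gene it spans 72 codons (216 bases). The first 60 bases of the box are printed for Sox2, for its SOXB1 relatives and for a pair each of SOXC and SOXE. Each pair is the one of its subgroup whose whole transcripts shared the longest run of bases. The box is printed on the coding strand, 5′ to 3′, with capitals for bases that differ from Sox2. The sequences are of the mouse genome GRCm38 with GENCODE M21 annotation, and all lie in coding exons. The stretch lies at chr3:34650545-34650604 in Sox2 (plus strand), at chr8:12396514-12396573 in Sox1 (plus strand) and at chrX:60892939-60892998 in Sox3 (minus strand). It lies at chr13:28952785-28952844 in Sox4 and chr12:27342202-27342261 in Sox11 (both minus strand), at chr11:112782900-112782959 in Sox9 (plus strand) and at chr15:79163345-79163404 in Sox10 (minus strand).
Sox2: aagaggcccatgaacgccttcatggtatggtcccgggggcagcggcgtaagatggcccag
Sox1: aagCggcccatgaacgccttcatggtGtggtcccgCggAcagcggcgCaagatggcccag
Sox3: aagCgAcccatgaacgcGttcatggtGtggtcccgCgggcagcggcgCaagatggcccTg
Sox4: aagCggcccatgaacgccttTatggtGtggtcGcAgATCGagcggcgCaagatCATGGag
Sox11: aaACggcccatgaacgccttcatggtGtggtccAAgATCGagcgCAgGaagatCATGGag
Sox9: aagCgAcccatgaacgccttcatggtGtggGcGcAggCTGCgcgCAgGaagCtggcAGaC
Sox10: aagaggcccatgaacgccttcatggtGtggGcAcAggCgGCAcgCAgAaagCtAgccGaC

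In this stretch Sox1 differed from Sox2 at 5 bases and Sox3 at 7, while Sox4 and Sox10 differed at 15 and Sox11 and Sox9 at 17. Over the whole box, the 7 pairs within a subgroup shared 82.4 to 90.3% of bases and the 38 pairs between subgroups 56.9 to 88.4%, and the latter range reached its top between Sox2 and Sox21. Between whole transcripts, on either strand, the longest shared run was 48 bases in Sox4 and Sox11. It was 45 in Sox1 and Sox3 and 44 in Sox9 and Sox10. Whether these runs lie in the box was not recorded. The read length is not given in the sources used here, and how reads that match several genes were counted is not given either. The box makes up 216 bases of exon lengths that run from 2057 bases in Sox2 to 14376 in Sox5.

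**Figure D1:**
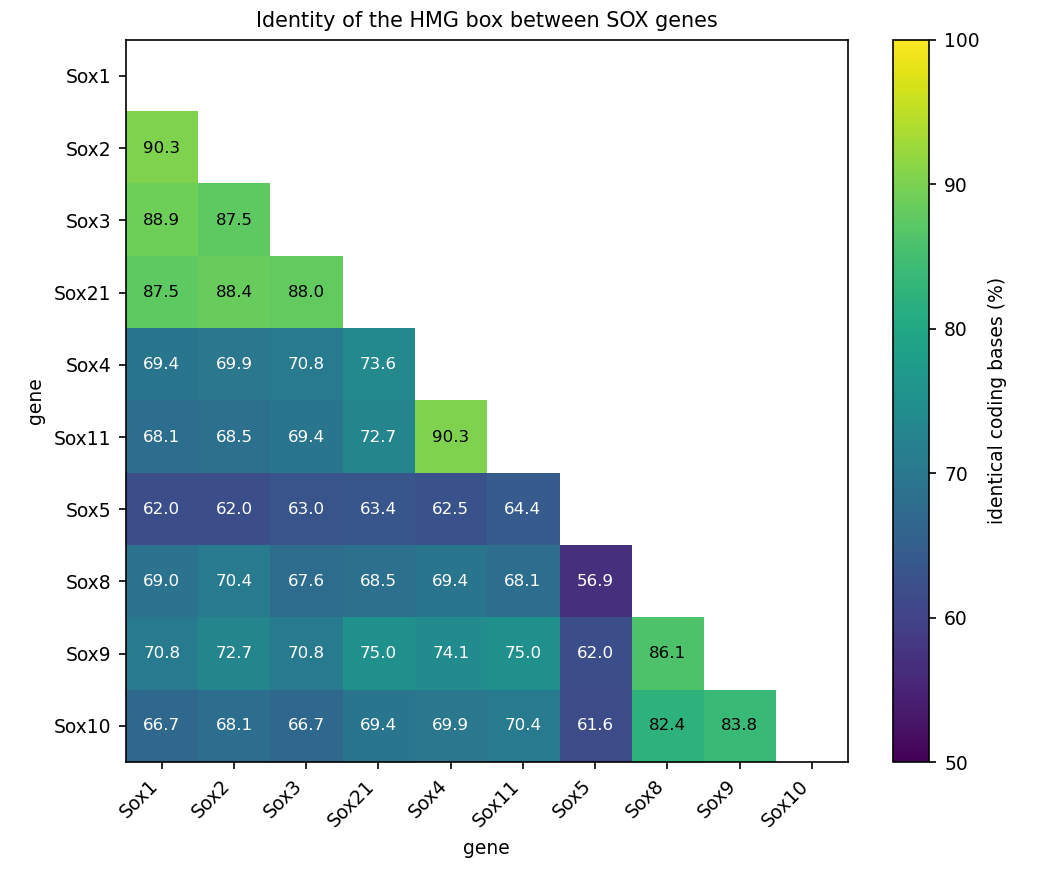
Percentage of the 216 coding bases of the HMG box that are identical between each pair of the 10 SOX genes, in colour and as a number in each cell. SOXB genes (Sox1, Sox2, Sox3, Sox21), SOXC genes (Sox4, Sox11) and SOXE genes (Sox8, Sox9, Sox10) form blocks of 82.4% and more, while Sox5 stays at 64.4% or below with every other gene.

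No SOX gene passed the test between cKO and WT. By the thresholds of the study a gene was called from a 2-fold change upward if its unadjusted p was also no higher than 0.05 (edgeR), and 0 of the 10 genes were called, where 0.811% of all genes tested were. None had an adjusted p under 0.05, which held for 0% of all genes in the fit as reported (0 to 116 genes under the alternatives), and none had an unadjusted p under 0.05, where 1.23% of all genes had (edgeR). DESeq2 also called 0 of the 10. The median log2 fold change of the 10 genes was -0.04 and the median of its absolute value 0.15, beside -0.01 and 0.13 over all genes tested. The fold change was below 0 in 6 of the 10, where 52.1% of all genes had one below 0.

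The 95% interval of the difference lay inside a 2-fold change in either direction for 9 of the 10 genes, all but Sox10, and did so for 70.1% of all genes tested. A change of a size inside its interval could not be told from none with 2 libraries per group. The 2 groups did not overlap for 3 genes. Sox11 was lower in both cKO libraries than in both WT libraries, 1 gene of 10 where 10.8% of all genes behaved so, and Sox3 and Sox9 were higher in both, 2 genes of 10 where 11.0% of all genes were. These shares are near those of all genes. In 8 of the 10 genes, the libraries of at least 1 label lay farther apart than the means of the 2 labels. The share of all genes that did so was not computed, so this count is not read as a trait of the SOX genes. Over all genes tested, the median absolute log2 ratio was 0.16 within WT and 0.26 within cKO, beside 0.13 between the labels. These are unlike measures, since single libraries spread more than groups of 2 libraries do, with or without a label difference. Neither these medians nor the count of 8 genes shows that libraries of one label differed more than the labels.

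**Figure D2:**
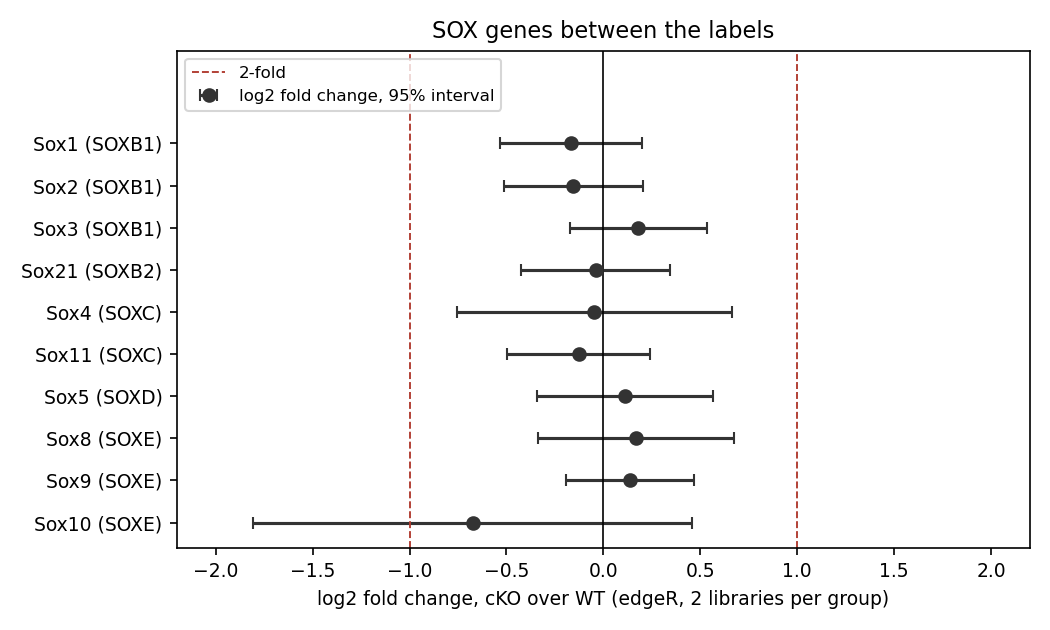
Log2 fold change of each SOX gene, cKO over WT, from edgeR with 2 libraries per group. Points are the estimates, bars the 95% intervals and dashed lines a 2-fold change in either direction. Every interval includes 0, and only that of Sox10, from -1.81 to 0.46, reaches past 2-fold.

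Levels were compared between genes per kilobase of exon (CPM per kb), since longer transcripts collect more reads. The mean over the 4 libraries was 187.8 CPM per kb for Sox11, which lay above 99.1% of all genes tested. Then came Sox2 at 91.39, Sox4 at 60.03 and Sox3 at 54.87 CPM per kb. Sox1 stood at 28.39, Sox9 at 23.72, Sox21 at 14.71, Sox5 at 13.35, Sox8 at 11.46 and Sox10 at 0.553 CPM per kb, the last 20.7 times below Sox8. Of the 9 neighbouring pairs in this order 5 overlapped in range over the 4 libraries (Sox2 with Sox4, Sox4 with Sox3, Sox1 with Sox9, Sox21 with Sox5 and Sox5 with Sox8), so their order is not settled. The place of Sox5 rests on the length used, since with the longest annotated transcript in place of all exons its level was 26.51 CPM per kb. Sox11 made up 41.3, 37.8, 38.2 and 37.3% of the summed level per kb of the 10 genes, and the 2 SOXC genes together 49.4, 53.9, 50.5 and 49.8%. The 3 SOXB1 genes held 38.2, 33.6, 35.4 and 36.7%. In both subgroups the WT libraries lay farther apart than the cKO libraries did, and the cKO values fell between the WT values.

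**Figure D3:**
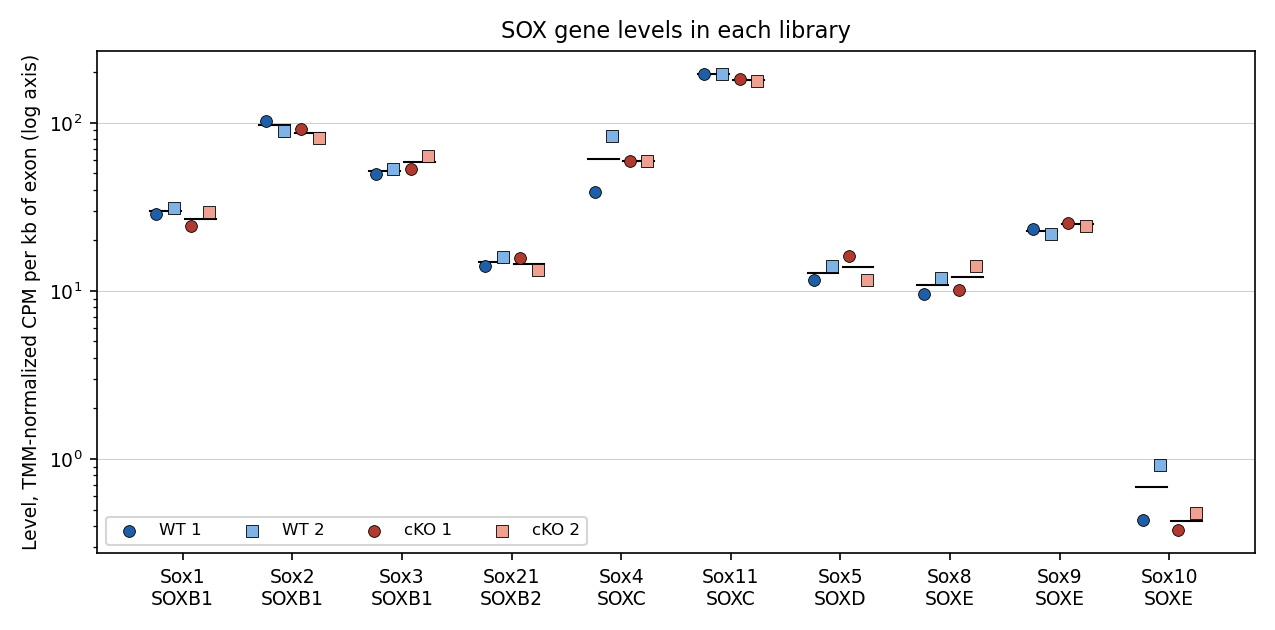
Level of each SOX gene in TMM-normalized CPM per kb of exon, on a log axis, with 1 point per library and a short line at each group's mean. Sox11 is highest in all 4 libraries, Sox10 is lowest at about 0.55 CPM per kb, and the WT 1 and WT 2 points of Sox4 lie farther apart than those of any other gene above 10 CPM per kb.

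Sox2, the SOXB1 factor most widely used as a marker of neural progenitors, had 211.6 and 184.8 CPM in WT 1 and WT 2 and 188.5 and 167 CPM in cKO 1 and cKO 2. The highest value was in WT 1 and the lowest in cKO 2, and the groups overlapped, since cKO 1 lay above WT 2. The means were 198.2 ± 18.9 CPM in WT and 177.8 ± 15.2 CPM in cKO (SD, n = 2 each). The log2 fold change of Sox2 was -0.16 (SE 0.16, 95% interval -0.52 to 0.20, adjusted p = 0.9999, edgeR). Sox2 is a single-exon gene at chr3:34650405-34652461 within the span of the long noncoding gene Sox2ot on the same strand, with no exonic base in common. Sox2ot had 1109, 1069, 954 and 1157 counts and a log2 fold change of -0.06 (SE 0.17), with groups that overlapped.

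Sox1, a SOXB1 factor of early neural progenitors, had 139.4 and 151 CPM in the WT libraries and 117 and 141.4 CPM in the cKO libraries. The lowest value was in cKO 1, while cKO 2 lay between the WT values, so the groups overlapped. Its log2 fold change was -0.17 (SE 0.16, 95% interval -0.53 to 0.20, adjusted p = 0.9999, edgeR). Without cKO 2 the log2 fold change of Sox1 was -0.30 and its unadjusted p 0.0464 (edgeR). Sox1 lies at chr8:12395295-12400126 within the span of the noncoding gene Sox1ot, which the table lists as Gm5607, on the same strand and with no exonic base in common.

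Gm5607 was lower in both cKO libraries, at 101.3 and 117.1 CPM against 141.2 and 138.1 CPM in WT. Its log2 fold change was -0.35 (SE 0.15) with an unadjusted p of 0.0446 and an adjusted p of 0.9999 (edgeR), which is short of the 2-fold threshold. Both neighbours at this locus thus had their lowest level in cKO 1, but the groups separated only for the noncoding gene. cKO 1 is also the library with the lowest sum of ventral telencephalon genes, and their part in these levels was not tested. Reads of an unspliced transcript of one could not be told from those of the other by gene counts.

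Sox3, the X-linked SOXB1 gene (chrX:60891366-60893430), had 102.9 and 109.5 CPM in WT and 110.3 and 130.4 CPM in cKO. The groups did not overlap, but cKO 1 lay within 1 CPM of WT 2, and the distance came from cKO 2. Sox3 had a log2 fold change of 0.18 (SE 0.15, 95% interval -0.17 to 0.53, adjusted p = 0.9999, edgeR). It was 0.07 without cKO 2 and 0.30 without cKO 1, the latter with an unadjusted p of 0.0385 (edgeR). WT 2, the library with no Y-linked counts, had a Sox3 level between those of WT 1 and cKO 1.

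The balance within SOXB1 varied between libraries of one label. Per kb, Sox3 stood at 0.485 and 0.59 of Sox2 in WT 1 and WT 2 and at 0.583 and 0.778 in cKO 1 and cKO 2. Sox1 stood at 0.28 and 0.348 of Sox2 in WT and at 0.264 and 0.36 in cKO. Both ratios were higher in replicate 2 of each label than in replicate 1, and the groups overlapped for both.

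Sox21, the SOXB2 factor that counters SOXB1 activity and promotes exit from the progenitor state, had 53.08 and 60.17 CPM in WT and 59.35 and 50.87 CPM in cKO. The cKO values bracketed WT 1 and stayed below WT 2, so the groups overlapped. Sox21 had a log2 fold change of -0.04 (SE 0.17, 95% interval -0.43 to 0.35, adjusted p = 0.9999, edgeR). Its sign turned without cKO 2 (0.08) and without WT 2 (0.07). On the opposite strand 18.8% of the exonic bases of Sox21 overlap the noncoding gene Gm4675, which had 15 to 30 counts per library against 909 to 1108 for Sox21.

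Genes that mark the cells in which SOXB1 factors act gave no called gene. Of 16 radial glia genes tested 0 were called and the median log2 fold change was 0.05. The 2 most abundant of them were Vim and Nes, which encode intermediate filaments of radial glia. Vim had 14899, 14763, 15172 and 16298 counts (log2 fold change 0.07, SE 0.16), with groups that overlapped. Nes had 9627, 9221, 10679 and 10775 counts (log2 fold change 0.17, SE 0.15) and was higher in both cKO libraries, without passing the test (adjusted p = 0.9999, edgeR). Of 12 proneural and intermediate progenitor genes 0 were called, with a median log2 fold change of 0.08. The 2 most abundant were Neurog2, a proneural factor, at 0.08 (SE 0.14) and Eomes, a marker of intermediate progenitors, at 0.20 (SE 0.15) on the log2 scale.

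Sox11, the SOXC factor with the highest level of the 10 genes, had 1631 and 1628 CPM in WT and 1520 and 1464 CPM in cKO. The WT libraries were nearly equal and both cKO libraries lay below them. The means were 1629 ± 2.19 CPM in WT and 1492 ± 39.1 CPM in cKO (SD, n = 2 each). The log2 fold change of Sox11 was -0.13 (SE 0.16, 95% interval -0.50 to 0.24), and it did not pass the test (adjusted p = 0.9999, edgeR). Leaving out each library in turn gave values from -0.15 to -0.09. Sox11 is a single-exon gene at chr12:27334264-27342574.

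Sox4, the SOXC factor that acts beside Sox11 in newborn neurons, differed most between libraries of one label. It had 186.2 CPM in WT 1 and 398.7 CPM in WT 2, from 3237 and 7342 counts, and 283.2 and 283.3 CPM in cKO 1 and cKO 2. The WT values thus lay on either side of the cKO values, which were nearly equal, and the groups overlapped. The log2 ratio of WT 2 over WT 1 was 1.09, larger in size than that of 98.9% of all genes tested. On this scale, with a pseudocount of 1 CPM, Sox4 was 1 of the 10 SOX genes at least 2-fold apart between the WT libraries, where 1.42% of all genes were, and none was as far apart between the cKO libraries, where 2.59% of all genes were. With a pseudocount of 0.1 CPM the low-count gene Sox10 passed as well, at a log2 ratio of 1.04.

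The log2 fold change of Sox4 between the labels was -0.05 (SE 0.31, 95% interval -0.76 to 0.66, adjusted p = 0.9999, edgeR). It was 0.62 without WT 2, with an unadjusted p of 0.0493 (edgeR), and -0.49 without WT 1, so the direction depends on which WT library is kept. Sox4 is a single-exon gene at chr13:28948919-28953713. Of its exonic bases 54.6% (2616) overlap the long noncoding gene Gm26735 on the opposite strand, which was not found among the genes of the deposited counts. Whether reads were counted by strand is not given in the sources used here, so reads of this partner could be part of the Sox4 count, and their part in the difference was not tested.

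Per kb, Sox4 stood at 0.198 and 0.425 of Sox11 in WT 1 and WT 2 and at 0.323 and 0.335 in cKO 1 and cKO 2. Since Sox11 was nearly equal in the WT libraries, this ratio followed Sox4. Sox12, the third SOXC gene, had 5424 and 7300 counts in the WT libraries against 5977 and 7597 in the cKO libraries, and its log2 fold change was 0.09 (SE 0.19). Like Sox4 it was lowest in WT 1, but unlike Sox4 it was highest in cKO 2.

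Genes of young neurons, where SOXC factors act, gave 0 called of 16 tested, with a median log2 fold change of 0.04. They were higher in WT 2 than in WT 1 for 13 of the 16, with a median log2 ratio of 0.16, and WT 1 is the library with the highest sums of mesenchyme and choroid plexus genes. The part of these in the level of Sox4 was not tested. The most abundant were Tubb3, a neuronal tubulin, with 30742, 37799, 30974 and 40629 counts (log2 fold change 0.05, SE 0.20), and Stmn1, a microtubule regulator, with 25100, 30263, 27598 and 33750 counts (log2 fold change 0.14, SE 0.19). On the CPM scale Stmn1 was lowest in WT 1 and Tubb3 in cKO 1, and both were highest in cKO 2. In bulk tissue, fewer cells of a type and less RNA per cell cannot be told apart.

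Sox5, the SOXD factor that controls the timing of deep-layer and subplate neurons, had 167 and 202.2 CPM in WT and 232.2 and 166.5 CPM in cKO. The cKO libraries held both the highest and the lowest value, so the groups overlapped. Its log2 fold change was 0.11 (SE 0.20, 95% interval -0.34 to 0.57, adjusted p = 0.9999, edgeR). The direction turned without cKO 1 (-0.15) and without WT 1 (-0.02), and without cKO 2 the value was 0.34 with an unadjusted p of 0.0483 (edgeR). Sox5 spans chr6:143828425-144781977 with 14 annotated transcripts, and an antisense gene, Sox5os1, overlaps 9.25% of its exonic bases.

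Sox6, the SOXD relative of Sox5, moved with it between libraries. Sox6 had 2011 and 2387 counts in the WT libraries against 2683 and 1947 in the cKO libraries, with a log2 fold change of 0.06 (SE 0.18). Per kb, Sox6 stood at 0.671, 0.621, 0.612 and 0.634 of Sox5. This ratio varied less than the level of either gene.

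Of 11 deep-layer and subplate genes 0 were called and the median log2 fold change was -0.07. Like Sox5, 10 of the 11 had a lower level in cKO 2 than in cKO 1, with a median log2 ratio of -0.32. Of all 16145 genes tested, 8328 were higher in cKO 2. This ratio moved with base composition over all genes, as described below, and the part of base composition here was not tested. The most abundant of the 11 were Tbr1 and Bcl11b. Tbr1, a factor of layer 6 and subplate neurons, had 6252, 8161, 8056 and 5423 counts. Bcl11b, a factor of layer 5 neurons, had 6089, 7829, 7489 and 5863 counts. Both were highest in WT 2 and lowest in cKO 2.

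Sox9, the SOXE factor that is on in radial glia and prepares the switch to glia, had 96.56 and 90.26 CPM in WT and 104.8 and 100.7 CPM in cKO. Both cKO libraries lay above both WT libraries. The means were 93.4 ± 4.46 CPM in WT and 102.8 ± 2.93 CPM in cKO (SD, n = 2 each). Sox9 had a log2 fold change of 0.14 (SE 0.14, 95% interval -0.19 to 0.47), and it did not pass the test (adjusted p = 0.9999, edgeR). Leaving out each library in turn gave 0.10 to 0.19. Per kb, Sox9 stood at 0.227 and 0.243 of Sox2 in WT and at 0.277 and 0.3 in cKO. The groups of this ratio did not overlap, and it was given no test. Several such ratios between SOX genes were formed, and the groups overlapped in all the others.

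Sox8, a SOXE factor of glial progenitors, had 29.96 and 37.36 CPM in WT and 31.48 and 44.1 CPM in cKO. In each label replicate 2 was the higher, and the groups overlapped. Its log2 fold change was 0.17 (SE 0.22, 95% interval -0.34 to 0.67, adjusted p = 0.9999, edgeR), and it turned to -0.08 without cKO 2 and was 0.39 without cKO 1. The antisense gene 2810468N07Rik, which overlaps 10.6% of the exonic bases of Sox8, had 85, 90, 93 and 125 counts and was highest in cKO 2, as Sox8 was. Per kb, Sox8 stood at 0.412 and 0.549 of Sox9 in WT and at 0.398 and 0.581 in cKO.

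Sox10, the SOXE factor of the neural crest and of the oligodendrocyte lineage, was close to the lower edge of what was measured. It had 23 and 52 counts in the WT libraries against 21 and 26 in the cKO libraries, or 1.32 and 2.82 CPM against 1.15 and 1.46 CPM. WT 2 was the highest, the other libraries lay close together and the groups overlapped. Sox10 had a log2 fold change of -0.67 (SE 0.49, 95% interval -1.81 to 0.46, adjusted p = 0.9999, edgeR), and it was -0.01 without WT 2 and -1.11 without WT 1. At this depth a 2-fold lower level of Sox10 lay inside the interval, and so did no difference.

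A pair of defining genes of the neural crest and its glia, picked out from their list after their values were seen, were also near 0. Erbb3, a receptor of crest-derived glia, had 7, 33, 0 and 13 counts. Foxd3, a factor of early crest, had 0, 12, 0 and 1 counts. Both were highest in WT 2, as Sox10 was. Their part in the Sox10 difference was not tested. Of 16 neural crest, Schwann cell and melanocyte genes only 8 passed the filter on low counts, 0 were called and the median log2 fold change was -0.27. The summed level of these 8 was 461.3, 473.8, 473.2 and 502.5 CPM, most of it from Fabp7, which radial glia also express.

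Of 16 glial and oligodendrocyte genes 13 were tested and 0 were called, with a median log2 fold change of -0.18. The most abundant were Fgfr3, a receptor of radial glia and later astrocytes, with 2995, 2858, 3163 and 3556 counts, and the glutamate transporter gene Slc1a2, with 1511, 1684, 1365 and 1259 counts. Fgfr3 was higher in both cKO libraries (log2 fold change 0.18, SE 0.15) and Slc1a2 lower in both (-0.30, SE 0.14), and neither passed the test (adjusted p = 0.9999 for each, edgeR). The astrocyte gene Gfap, which was named after its values were seen, had 1 to 4 counts per library.

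SOX9 is also a master factor of cartilage, so genes of cartilage and cranial mesenchyme were set beside it. Of 13 such genes tested 4 were called, all lower in cKO (Alx4, Col1a1 and Col1a2 among them), and the median log2 fold change was -1.29. Genes of cartilage itself, named after their values were seen, were not called. The log2 fold change was 0.05 (SE 0.18) for Col2a1, -0.01 (SE 0.22) for Col11a1 and -0.20 (SE 0.58) for Col9a1. It was -1.275 (SE 0.61) for Hapln1, a gene of low counts. Col2a1, the most abundant gene of the list, had 2920, 2324, 2664 and 2853 counts. The summed level of the 13 genes was 507.6, 221.6, 268.3 and 230.4 CPM, so only WT 1 was high. Without WT 1 the median was 0.03 and 2 genes were called lower, while leaving out WT 2, cKO 1 or cKO 2 gave 9, 6 or 1 called lower. Within each label Sox9 was higher in the library with the higher sum, WT 1 and cKO 1, while its level in WT 1 lay below that in both cKO libraries. The part of mesenchyme in the level of Sox9 was not tested. Of 12 genes of choroid plexus and cortical hem tested 3 were called, all lower in cKO (Htr2c, Aqp1 and Otx2), again with a high sum in WT 1 alone. Their median log2 fold change turned from -1.28 to 0.77 without WT 1, where 0 were called lower and 2 higher, and leaving out WT 2, cKO 1 or cKO 2 gave 10, 2 or 2 called lower. Of 15 genes of the ventral telencephalon 0 were called, with a median log2 ratio of cKO 2 over cKO 1 of 0.71, and 2 were called lower without cKO 2. Of 7 tested genes of the diencephalon, midbrain and hindbrain 0 were called.

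Partner factors of SOX proteins gave no called gene either. Of 14 tested 0 were called, and the median log2 fold change was 0.01. The most abundant were the nuclear factor I genes Nfix, with a log2 fold change of 0.29 (SE 0.16), and Nfib, with 0.06 (SE 0.20). Nfix was higher in both cKO libraries, at 9769, 11902, 13358 and 13269 counts, and did not pass the test (adjusted p = 0.9999, edgeR). Nr2f2, a nuclear receptor named after its values were seen, was the one partner with an unadjusted p under 0.05. It had 2173, 1813, 1173 and 1436 counts, a log2 fold change of -0.63 (SE 0.18), an unadjusted p of 0.00924 and an adjusted p of 0.9999 (edgeR), short of a 2-fold change. It was lowest in cKO 1, as the sum of ventral telencephalon genes was, and the part of these was not tested.

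Among the other 9 SOX genes none was called. Of these, 7 were tested, and Sox14 and Sox15 had at most 4 counts in a library. The SOXF genes Sox7, Sox17 and Sox18, which mark endothelium, had 58 to 194 counts per library. Sox7 was lower in both cKO libraries, with 108, 89, 58 and 80 counts and a log2 fold change of -0.53 (SE 0.33). Sox30 was lower in both as well, at 11 counts in each cKO library against 13 in each WT library, and neither passed the test (adjusted p = 0.9999 for each, edgeR). The summed level of 18 endothelial, blood and microglia genes was 1140, 606.4, 507 and 703.7 CPM, most of it from globin genes. Sox7 was likewise highest in WT 1 and lowest in cKO 1. Sox17, with 86, 72, 64 and 94 counts, and Sox18, with 162, 178, 121 and 194 counts, were highest in cKO 2, and their groups overlapped. The part of vessels and blood in these levels was not tested.

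Differences within a label were set beside those of all genes. The median absolute log2 ratio of WT 2 over WT 1 was 0.19 for the 10 genes beside 0.16 for all genes tested, and that of cKO 2 over cKO 1 was 0.21 beside 0.26. Between the cKO libraries the ratio moved with base composition, and less strongly with exon length. Across 16120 genes with an annotated transcript, Spearman's rho of the log2 ratio of cKO 2 over cKO 1 with the GC content of the longest transcript was 0.634, against 0.159 for WT 2 over WT 1. With exon length, rho was -0.325 for cKO 2 over cKO 1 and 0.088 for WT 2 over WT 1. For the fold change of cKO over WT, rho was 0.266 with GC content and -0.185 with exon length. These genes share libraries and depth and are not independent replicates, so the values describe the libraries. The median log2 ratio of cKO 2 over cKO 1 was -0.38 for genes of up to 45% GC and 0.28 for genes of over 55% GC.

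The SOX genes span this range, from 44.8% GC in Sox5 to 66.4% in Sox3. Sox5 had the lowest log2 ratio of cKO 2 over cKO 1 of the 10, at -0.48. It also has the longest exon length of the 10, at 14.38 kb, so GC content and length cannot be told apart for it. The ratio was -0.05 in Sox11 (46.5% GC), -0.06 in Sox9 (49.3%), -0.17 in Sox2 (50.5%) and 0.00 in Sox4 (51.1%). Above these in GC content, it was 0.47 in Sox8 (54.2%), 0.27 in Sox1 (56.9%), 0.19 in Sox10 (61.8%) and 0.24 in Sox3 (66.4%). Sox21 lay lower, at -0.22 with 58.3% GC. The ratio did not rise steadily with GC content among the 10, since Sox8 had the highest value and the more GC-rich Sox10 and Sox3 had lower ones.

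With offsets corrected for GC content in each library, an alternative chosen after seeing the data, all 10 SOX genes kept the direction of their fold change and 0 were called. The log2 fold change became -0.22 for Sox1, with an unadjusted p of 0.0593 (edgeR), 0.15 for Sox3, 0.15 for Sox5 and 0.12 for Sox8.

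**Figure D4:**
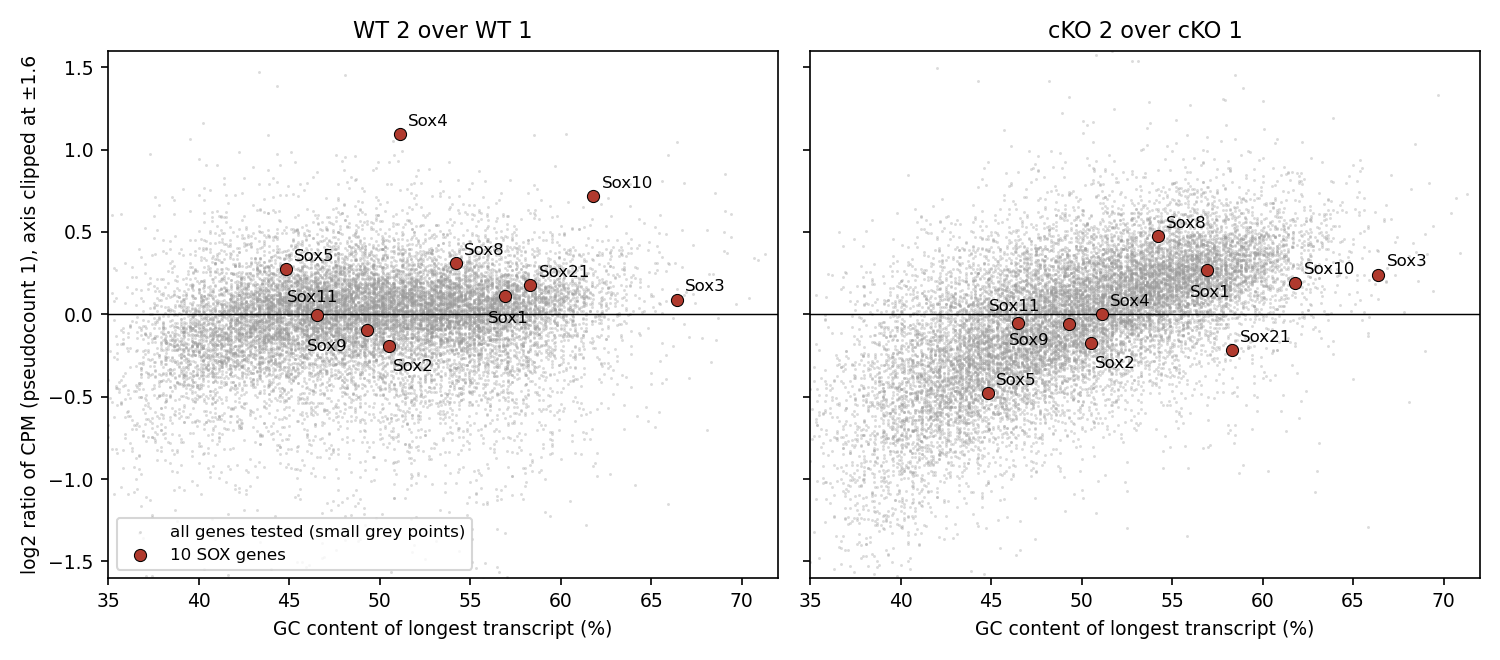
Log2 ratio of CPM (pseudocount 1) between the libraries of one label against the GC content of the longest transcript in percent, WT 2 over WT 1 on the left and cKO 2 over cKO 1 on the right. Grey points are all genes tested with an annotated transcript whose ratio lies within the axis, and red points the 10 SOX genes. On the left Sox4 stands out at 1.09, and on the right the cloud rises with GC, with Sox5 at -0.48 and Sox21 below most of the cloud at -0.22.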

How the data were processed

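Counts of 4 bulk RNA-seq libraries (E13, 2 WT and 2 cKO by genotype label) were analysed. The authors deposited raw counts of reads per gene. The submitters' processing notes name Bowtie2 2.2.3, TopHat2 2.0.12, HTSeq 0.6.0 and the build mm9, without their roles, and strand and the handling of reads that match several genes are not given in the sources used here. Gene positions share a start or an end with GENCODE M21 for 96.8% of 27232 genes found in both, so they were read as GRCm38. Of 27304 rows 11 (0.0403%) name no gene and were left out. A second table of WT 1 and cKO 1 holds identical counts for all 21342 genes in both. Its CPM columns, and the authors' own fold changes and p-values in both tables, were not used.

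Both labels were compared by the quasi-likelihood test of edgeR 4.0.16 (R 4.3.3), after TMM normalization and filterByExpr and without covariates, over 16145 genes and with Benjamini-Hochberg adjustment over all of them. Intervals (95%) use the unshrunk coefficient and the test's degrees of freedom. Ratios between 2 libraries use CPM with a pseudocount of 1. The procedure was tested on simulated data. Alternatives were RLE and upper-quartile size factors, other filters, DESeq2 1.42.0, a replicate block, leaving out each library, a stricter p, CPM without TMM, another pseudocount, another length and GC-corrected offsets. The SOX genes and all lists were chosen with earlier results of these data known. Named were the SOX genes, genes overlapping them, called genes and the 2 most abundant genes of several lists, and other names are marked in the text. Some genes of the lists are not reported here.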

Additional observations from a re-analysis of the deposited data

How the results depend on the processing

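Under every alternative 0 of the 10 SOX genes were called and 0 had an adjusted p under 0.05, and the smallest adjusted p of a SOX gene was 0.2972. Of 110 fits of a SOX gene under an alternative, 103 kept the direction and 7 reversed it. Sox4 turned to 0.055 with the replicate block, and leaving out 1 library in turn gave -0.494 to 0.618 for Sox4, -0.153 to 0.081 for Sox21, -0.147 to 0.344 for Sox5 and -0.084 to 0.391 for Sox8 on the log2 scale. The other 6 genes never reversed. The cause was not tested.

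The count of all genes called, 131 (108 lower and 23 higher in cKO), was 405 with no filter and 72 with at least 10 counts in every library (27293 and 14939 genes tested). It was 65 with DESeq2, 208 with the replicate block, 14 at an unadjusted p of at most 0.01, and 104 to 531 when a library was left out (104 without WT 1, 476 without WT 2, 531 without cKO 1 and 121 without cKO 2). Of all genes, 0 had an adjusted p under 0.05, against 65 with no filter, 5 with the replicate block, 7 without WT 1, 116 without WT 2 and 105 without cKO 1. Without WT 1 the calls split into 47 lower and 57 higher. In these fits the lone library is assumed to vary like the other group. The replicate numbers come from the labels alone, and deviations of same-numbered libraries had a correlation of 0.139 over 16145 genes, with 2 pairs, so they were not taken as pairs. The block changed no call of a SOX gene. With 2 libraries per group, and counts of 21 to 52 for Sox10, small changes could not be resolved. Lists of other genes with 0 called in the report had 0 to 2 called when a library was left out, apart from the 4 genes of chromosome Y, which were all called higher without WT 1, an alternative chosen after seeing the data.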
